A study of Mus musculus with 23 samples.

Results

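The 9 genes described here encode nuclear receptors of the liver: Nr1i2, Nr1i3, Rxra, Hnf4a, Ppara, Pparg, Nr1h3, Nr5a2 and Rora. They were taken by symbol, as receptors of xenobiotic and lipid metabolism and of liver identity, and are 9 of the 24475 genes of the expression table. All 9 also passed the filter on low values that left 11939 genes for testing. The measurements are RNA-seq of liver from male C57BL/6J mice in 23 libraries, numbered 1 to 23 as in the sample titles. Feeding lasted 4 months, and every mouse received an antibody (10 mg/kg, over 3 weeks), so that no group went without one. Control antibody REGN496 was given on chow (5 libraries, 1 to 5) and on a high-fat diet, HFD (6 libraries, 12 to 17). REGN1193, which blocks the glucagon receptor GCGR, was given on chow (6 libraries, 6 to 11) and on HFD (6 libraries, 18 to 23). REGN496 was taken as the isotype control by elimination, because the labels do not tie that code to the control. The labels do not say that each library is a separate mouse, so the p-values reflect only how much these samples vary, which may be in part technical.

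Nuclear receptors are transcription factors whose ligand-binding domain is, in many members, switched by small lipophilic molecules such as bile acids, fatty acids, oxysterols and drugs. In hepatocytes HNF4A maintains hepatocyte identity, LRH-1 (Nr5a2) and LXRA (Nr1h3) act in bile acid, cholesterol and lipid synthesis, and PPARA drives fatty acid oxidation and ketogenesis in fasting. CAR (Nr1i3) and PXR (Nr1i2) sense drugs and endogenous toxicants, PPARG is low in normal liver and is known for its lipid storage programme in fatty liver, and RORA links metabolism with the circadian clock. CAR, PXR, PPARA, PPARG and LXRA bind DNA as dimers with RXRA, usually at repeats of the sequence AGGTCA, whereas HNF4A pairs with itself and LRH-1 and RORA can bind as monomers.

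The promoters of the 4 receptor genes whose transcripts changed in at least 1 comparison are shown first. RefSeq windows on build GRCm38.p6, which reach from 250 bases before to 50 bases after an annotated start, gave 15 windows for the 9 genes, and the 250 bases before the start are printed 5′ to 3′ on the gene's strand. Capitals mark the receptor core site AGGTCA, the E-box CACGTG and the GC box GGGCGG on either strand. Positions are counted from the start site, and for Nr1h3 1 of 2 overlapping windows is shown. Both Nr1h3 windows lie inside the annotated span of the gene (91184061 to 91202829), and its outer end has no window.
Nr1i3 promoter, chr1:171213720-171213969, plus strand: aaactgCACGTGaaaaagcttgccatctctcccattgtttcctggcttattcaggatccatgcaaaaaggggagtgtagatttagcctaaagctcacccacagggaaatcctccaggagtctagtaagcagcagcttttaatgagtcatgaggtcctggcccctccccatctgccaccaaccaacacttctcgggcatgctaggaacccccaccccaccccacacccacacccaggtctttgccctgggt
Ppara promoter, chr15:85735526-85735775, plus strand: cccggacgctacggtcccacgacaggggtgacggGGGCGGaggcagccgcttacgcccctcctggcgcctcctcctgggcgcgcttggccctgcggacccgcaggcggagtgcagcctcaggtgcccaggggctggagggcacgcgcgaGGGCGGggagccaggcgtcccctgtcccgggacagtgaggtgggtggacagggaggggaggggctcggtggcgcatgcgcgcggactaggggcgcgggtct
Nr1h3 promoter, chr2:91195036-91195285, minus strand: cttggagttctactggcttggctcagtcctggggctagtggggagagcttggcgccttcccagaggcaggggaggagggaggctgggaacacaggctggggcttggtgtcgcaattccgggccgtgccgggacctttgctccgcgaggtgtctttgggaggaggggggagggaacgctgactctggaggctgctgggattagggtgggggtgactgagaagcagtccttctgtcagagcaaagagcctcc
Hnf4a upstream start, chr2:163506607-163506856, plus strand: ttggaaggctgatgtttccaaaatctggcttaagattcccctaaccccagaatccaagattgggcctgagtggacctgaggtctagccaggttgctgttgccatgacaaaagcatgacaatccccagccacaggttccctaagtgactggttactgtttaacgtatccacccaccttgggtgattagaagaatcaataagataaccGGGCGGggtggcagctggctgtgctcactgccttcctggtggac
Hnf4a downstream start, chr2:163546905-163547154, plus strand: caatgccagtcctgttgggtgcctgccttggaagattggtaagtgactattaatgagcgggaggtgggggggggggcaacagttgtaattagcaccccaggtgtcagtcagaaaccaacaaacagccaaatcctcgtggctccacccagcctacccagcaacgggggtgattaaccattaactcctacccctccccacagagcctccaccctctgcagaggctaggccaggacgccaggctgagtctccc

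The Ppara window held 30 CG dinucleotides and 74.7% G and C, against a median of 7 CG dinucleotides over 32851 RefSeq windows of the same length. The Nr1i3 window held 3, the printed Nr1h3 window 10 and each Hnf4a window 4. Among the receptors called in no comparison, the Rxra windows held 55 and 1, and the Pparg windows 44, 13 and 2. The Rora window held 28, the Nr5a2 windows 7 and 2, and the Nr1i2 window 2. GGGCGG stood in the Ppara window at -216 and -101 and in the upstream Hnf4a window at -44, and 35.7% of all windows hold it. CACGTG stood in the Nr1i3 window at -244, and 7.15% of all windows hold it. AGGTCA was searched on both strands and was in none of the 5 printed windows, against 16.3% of all windows. It was present in 1 of 2 Nr5a2 windows, in 1 of 2 Rxra windows and in 2 of 3 Pparg windows. Direct repeats of AGGTCA spaced by 1 or by 4 bases, which contain AGGTCA, were in no window of the 9 genes and are in 0.0396% and 0.0152% of all windows. These are matches of letters, not measured binding sites.

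Expression is in RPKM, which divides reads by gene length and by the reads of the library, so levels can be set side by side between genes. Relative sequencing depth, read from the steps of low values, ranged from 0.865 to 1.15 over the libraries. The hepatocyte markers Alb, Ttr, Apoa1, Apob, Fgb, Ahsg and Tat were all expressed and summed to 49660 to 67890 RPKM over the libraries. On HFD the sums were 56870 to 67890 RPKM with control antibody and 49660 to 56850 with GCGR antibody, with no overlap but nearly touching. The largest part of those sums was Alb, with means of 36440 and 28130 RPKM. Of the 7 markers 1 was called lower in that comparison, Alb (-0.37 ± 0.09 on the log2 scale, adjusted p = 0.0137), and 0 higher. The part of the hepatocyte markers in the receptor results was not tested. Libraries 19 and 20, both of GCGR antibody on HFD, correlated least with their own group (mean r 0.980 and 0.979, the lowest of the 23), and results that rest on that group are given with and without them where they differ. Gcgr itself, whose protein and not transcript is the antibody's target, was at 107 ± 6.11 and 112 ± 6.03 RPKM on chow (SD, n = 5 and 6, control and GCGR antibody) and at 117 ± 4.36 and 118 ± 3.07 on HFD (n = 6 each), and neither antibody comparison called it (adjusted p = 0.623 and 0.898). In bulk liver, fewer cells of a type and less RNA per cell cannot be told apart.

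A gene was called higher or lower when its adjusted p was under 0.05, with limma on log2(RPKM + 1) over all 23 libraries and Benjamini-Hochberg adjustment over the 11939 genes. Fold changes are on that log2 scale, ± SE, and understate changes of low genes. GCGR antibody on chow moved 0 of the 9 receptors, where 0.946% of all genes were called in either direction, and 0 of the 9 reached an unadjusted p under 0.05, as 1288 genes did. On HFD it raised 1 of the 9, Nr1i3, against 5.33% of all genes called higher, and lowered 0, against 2.12% called lower. HFD under control antibody raised Ppara and Nr1h3, 2 of 9 against 11.6% of all genes called higher, and lowered Hnf4a, 1 of 9 against 18.3% called lower. Under GCGR antibody the same diet raised Ppara, Nr1h3 and Nr1i3, 3 of 9 against 13.2% called higher, and lowered 0, against 16.6% called lower. The difference between the antibody effects on the 2 diets was called for 0 of the 9 receptors and for 0.201% of all genes, and at an unadjusted p under 0.05 for 0 receptors and 1177 genes. The diet comparisons use the same libraries as the antibody comparisons, so these results are not independent of each other. The shares of all genes given here also apply to the counts given below for gene and marker lists.

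**Figure D1:**
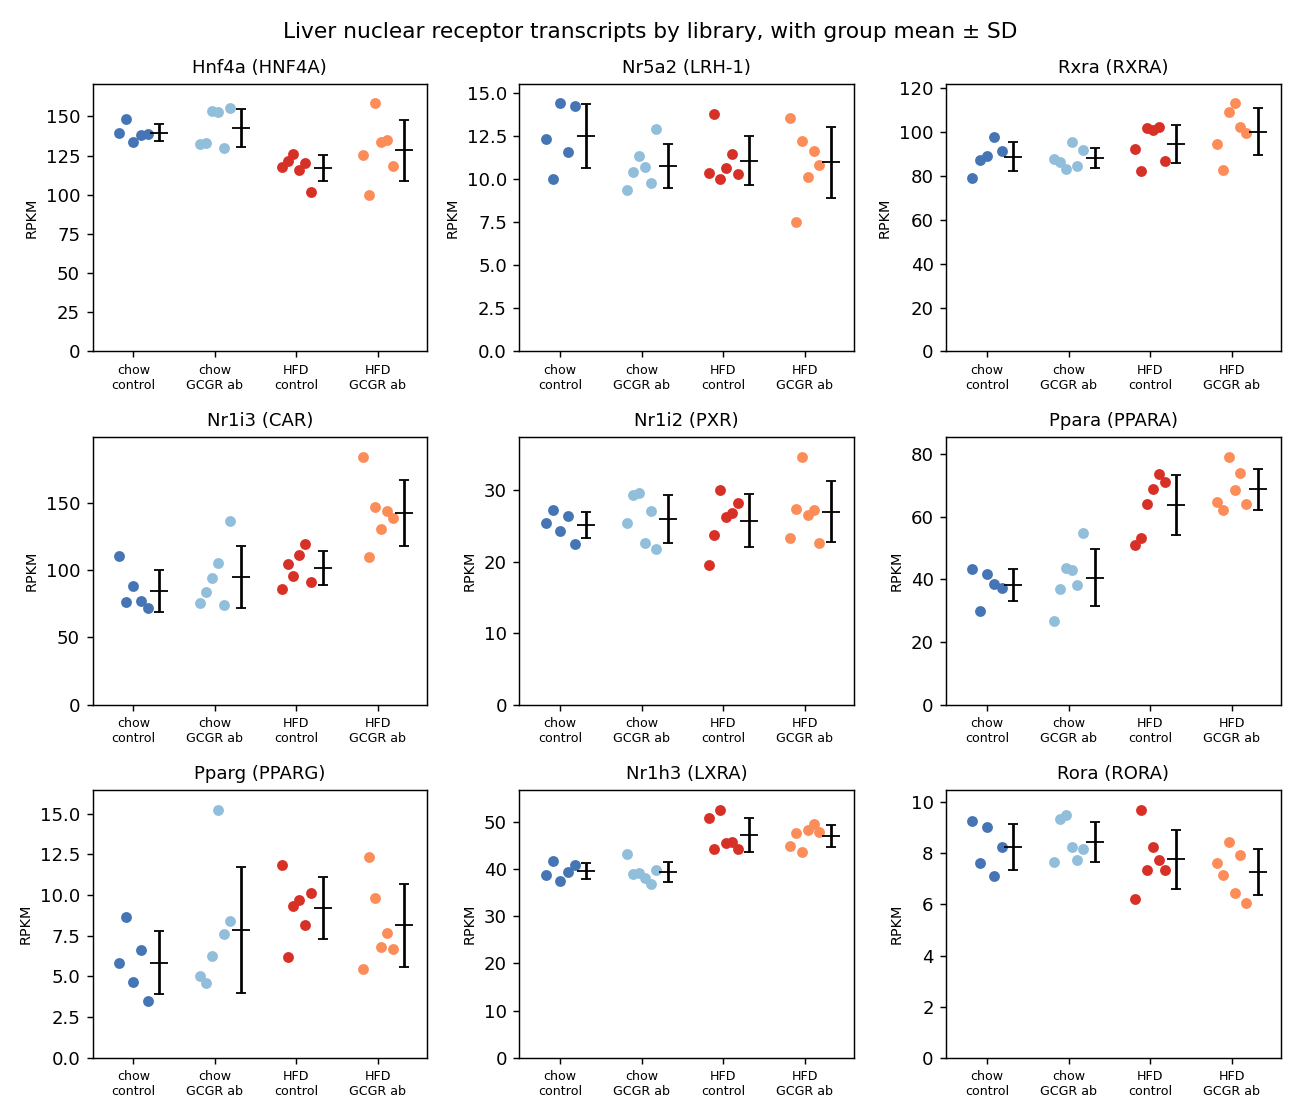
RPKM of each of the 9 receptor genes (linear axis from 0) in each library, by group, with the group mean ± SD in black; n = 5, 6, 6 and 6 from left to right, and ab stands for antibody. Ppara and Nr1h3 lie higher on HFD with no overlap under either antibody, Hnf4a lies lower on HFD under control antibody, and Nr1i3 is highest in the HFD group given GCGR antibody.

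HNF4A, the receptor most tied to hepatocyte identity, had the highest mean transcript level of all nuclear receptor genes in 3 of the 4 groups. Hnf4a (chromosome 2, 163506811 to 163572907) stood at 139, 148, 133, 138 and 139 RPKM in libraries 1 to 5 of chow with control antibody. On HFD with control antibody the lowest, median and highest of 6 libraries were 102, 119 and 126 RPKM. Every HFD control library lay below every chow control library. Hnf4a thus fell under control antibody (log2 change -0.25 ± 0.09, 95% interval -0.43 to -0.07, a change of -16.1%, adjusted p = 0.0302). That call was lost without library 1, 2, 4, 5 or 17 and under median-ratio scaling (adjusted p up to 0.0758). Under GCGR antibody the chow libraries ran from 129.8 through a median of 143 to 156 RPKM, and the HFD libraries from 99.8 through 129 to 158. Those groups overlapped, and the HFD group held both the lowest and the highest Hnf4a value of the study, in libraries 19 and 20. The diet difference there was -0.16 ± 0.08 (adjusted p = 0.135), and without library 20 it was called (-0.23, adjusted p = 0.0256). A long noncoding gene, Hnf4aos (2.24 to 8.76 RPKM), overlaps Hnf4a, and the strand setting of the authors' counting is not given in the sources used here.

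Of 18 genes listed as HNF4A targets, HFD under control antibody raised 5 and lowered 3, with a median log2 change of 0.00 against -0.03 over all genes. Of all genes 11.6% were called higher and 18.3% lower. Apoa4, an apolipoprotein of lipid-rich particles, rose from 38.02 ± 4.20 RPKM (SD, n = 5) to 1102 ± 980 (n = 6), a log2 change of 4.30 ± 0.51 (adjusted p = 3.46e-06). Apoc3, an inhibitor of lipoprotein lipase, rose by 0.63 ± 0.11 (adjusted p = 2.20e-04), and Apom, an apolipoprotein of HDL, fell (-0.63 ± 0.11, adjusted p = 2.07e-04). GCGR antibody on HFD raised 1 of the 18, Apom (0.42 ± 0.10, adjusted p = 0.0132), near the 5.33% of all genes called higher. Apom was not called when only the compared groups were fitted or under median-ratio scaling (adjusted p = 0.0662 and 0.0685).

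Nr5a2, which encodes LRH-1, an activator of bile acid and cholesterol transport genes, was far lower, and no comparison called it. It stood at 12.3, 10.0, 14.4, 11.6 and 14.2 RPKM in libraries 1 to 5 and at 9.35 to 12.9 RPKM (median 10.6) on chow with GCGR antibody. On HFD it ran from 9.99 to 13.8 (median 10.5) with control antibody and from 7.50 to 13.6 (median 11.2) with GCGR antibody. All 4 groups overlapped, and the lowest value was again in library 19. The 95% interval of the antibody effect on HFD was -0.25 to 0.20 on the log2 scale, and on chow it was -0.44 to 0.04 (adjusted p = 0.587).

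Of 10 listed LRH-1 targets, GCGR antibody on HFD raised 3 and lowered 0, with a median of 0.36 against 0.05 over all genes. Of all genes 5.33% were called higher and 2.12% lower. Scarb1, the hepatic HDL receptor, rose from 49.2 ± 5.83 to 73.3 ± 12.1 RPKM (SD, n = 6 each), a log2 change of 0.56 ± 0.10 (adjusted p = 7.82e-04), and the libraries did not overlap. Abcg5, a subunit of the biliary sterol exporter, rose by 0.69 ± 0.12 (adjusted p = 0.00119), also with no overlap. Apom was the third, and Apom and Abcg5 also stand on the HNF4A or LXR list. HFD under control antibody raised 1 and lowered 2 of the 10, near the 11.6% and 18.3% of all genes called higher and lower. Among the lowered was Abcb11, the bile salt export pump (-0.93 ± 0.12, adjusted p = 1.36e-05). Cyp7a1, which catalyses the first step of bile acid synthesis, averaged 18.9 ± 5.69 RPKM on HFD with control antibody and 46.9 ± 10.8 with GCGR antibody, a log2 difference of 1.28 ± 0.44 that was not called (adjusted p = 0.0768). Without library 19, with array quality weights or with only the compared groups fitted, Cyp7a1 was called (adjusted p = 0.00435 to 0.0425).

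Rxra encodes the shared dimer partner and had little spread. Its RPKM were 79.0, 87.1, 88.9, 97.5 and 91.2 in libraries 1 to 5, and 83.0 to 95.3 (median 87.0) on chow with GCGR antibody. On HFD it ran from 82.1 to 102 (median 96.6) with control antibody and from 82.5 to 113 (median 101) with GCGR antibody. All groups overlapped. The diet effect under GCGR antibody was 0.18 ± 0.07 (95% interval 0.03 to 0.33, adjusted p = 0.0696), and it was called without library 19 (0.23, adjusted p = 0.0147), without libraries 19 and 20 (0.21, adjusted p = 0.0336), with array quality weights and under median-ratio scaling. The intervals of Rxra for diet under control antibody and for the antibody on each diet lay between -0.17 and 0.24, and that for the difference between the antibody effects was -0.13 to 0.31.

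Levels of its dimer partners were then set against Rxra. Summed over Nr1i2, Nr1i3, Ppara, Pparg and Nr1h3, the partner level was 194 ± 18.5 RPKM on chow with control antibody (SD, n = 5), 209 ± 31.4 on chow with GCGR antibody, 247 ± 19.7 on HFD with control antibody and 294 ± 23.9 on HFD with GCGR antibody (n = 6 each). Divided by Rxra in each library, that sum was 2.20 ± 0.37, 2.37 ± 0.30, 2.63 ± 0.19 and 2.95 ± 0.31 in the same order. The ratios ran from 1.93 to 2.83 in the first group and from 2.49 to 3.42 in the last, so they overlapped. Between the HFD groups most of the difference in the partner level was in Nr1i3, with means of 101.5 and 142.7 RPKM. Ppara averaged 63.7 and 68.8 there, Nr1h3 47.2 and 47.0, Nr1i2 25.7 and 27.0, and Pparg 9.23 and 8.13. The partner sums were chosen with the members' values known and carry no test, and RXRA has further partners and 2 paralogs that are not counted.

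**Figure D2:**
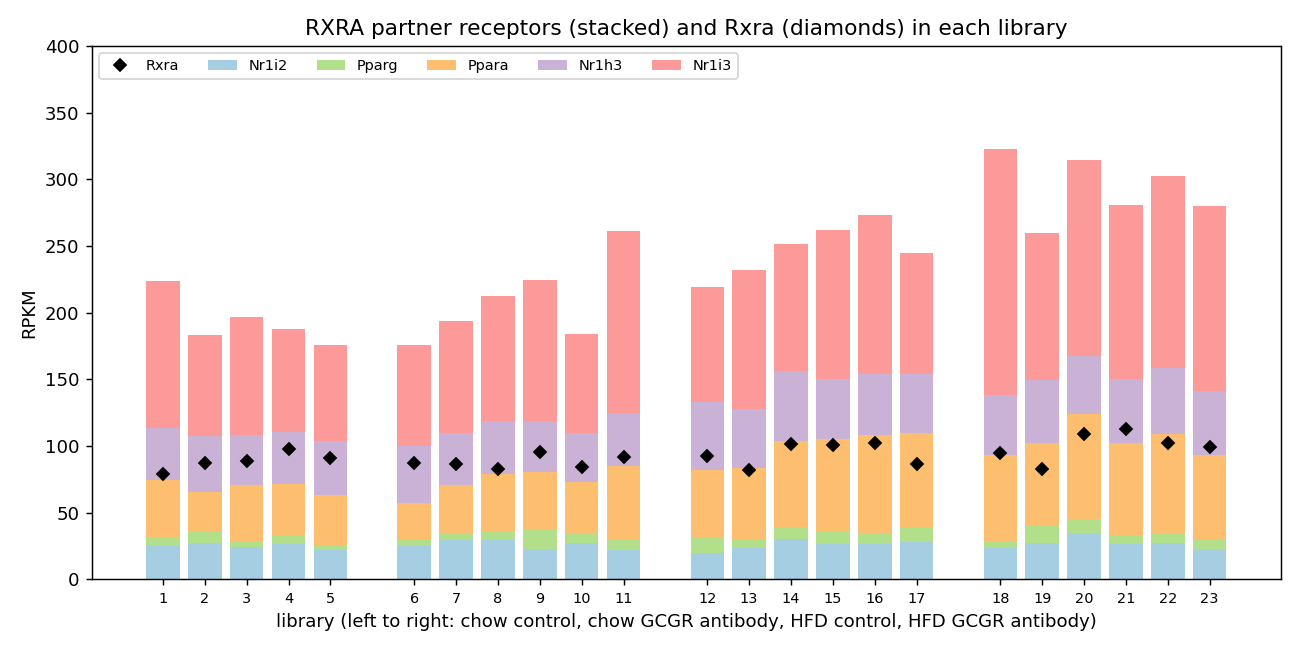
Stacked RPKM of the 5 receptor genes whose proteins dimerise with RXRA (bars from 0) and the RPKM of Rxra (black diamonds) in each of the 23 libraries, grouped by diet and antibody. The stacks of libraries 18 to 23 are the tallest on average (294 ± 23.9 RPKM), though library 19 lies within the range of libraries 12 to 17, and the diamonds lie between 79.0 and 113 RPKM. Between libraries 12 to 17 and 18 to 23 most of the mean difference in the stacks is Nr1i3.

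CAR was the 1 receptor of the 9 whose transcript was called with GCGR antibody, and this was on HFD. Nr1i3 (chromosome 1, 171213934 to 171218845) measured 110.4, 76.1, 88.4, 77.0 and 72.0 RPKM in libraries 1 to 5. On chow with GCGR antibody the lowest, median and highest were 74.4, 89.1 and 136 RPKM, the highest in library 11. On HFD they were 86.3, 100.2 and 119 RPKM with control antibody and 110.3, 142 and 185 with GCGR antibody. Of the 6 HFD libraries with GCGR antibody, 5 lay above every HFD control library, and library 19 lay among the controls. On HFD the antibody difference was 0.48 ± 0.14 on the log2 scale (95% interval 0.19 to 0.77, 1.39-fold, adjusted p = 0.0365). The call was lost in 9 of 19 alternatives: without library 12, 14, 17, 18, 20, 21 or 22, without the filter and under median-ratio scaling. Over all 19 the adjusted p ran from 0.0132 to 0.0903 and the log2 change from 0.40 to 0.55. On chow the antibody difference was 0.15 ± 0.15 (95% interval -0.15 to 0.45, adjusted p = 0.782). The difference between the antibody effects was 0.33 ± 0.20 (95% interval -0.08 to 0.75, adjusted p = 0.607), so the effects on the 2 diets were not shown to differ.

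Diet raised Nr1i3 under GCGR antibody by 0.60 ± 0.14 (95% interval 0.31 to 0.88, adjusted p = 0.00264), a call that held in all 19 alternatives (adjusted p up to 0.0117). The 2 groups overlapped through library 11 on chow, at 136 RPKM, which lay above libraries 19 and 21 on HFD (110.3 and 130.6 RPKM). Under control antibody the diet effect was 0.27 ± 0.15 (adjusted p = 0.173). In the HFD group with GCGR antibody Nr1i3 had the highest mean of any nuclear receptor gene, 143 ± 24.5 RPKM (SD, n = 6) against 128 ± 19.5 for Hnf4a, and it stood above Hnf4a in 4 of the 6 libraries. Tomm40l (1.20 to 3.93 RPKM) overlaps the end of Nr1i3, with strand use in counting not given.

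PXR, the other xenobiotic receptor, did not pass the test in any comparison. Nr1i2 was 25.4, 27.2, 24.3, 26.4 and 22.4 RPKM in libraries 1 to 5 and 21.8 to 29.6 (median 26.2) on chow with GCGR antibody. On HFD it was 19.5 to 30.01 (median 26.5) with control antibody and 22.6 to 34.7 (median 26.9) with GCGR antibody. The groups overlapped throughout. The intervals of Nr1i2 for the 2 antibody and 2 diet effects lay between -0.20 and 0.28 on the log2 scale, and that for the difference between the antibody effects was -0.28 to 0.33.

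Genes listed as targets of CAR and PXR differed with diet and with antibody. Of 22 listed targets, HFD under control antibody lowered 15 and raised 1, against 18.3% and 11.6% of all genes. The list median was -0.48 against -0.03 over all genes. Cyp3a11, the main drug-metabolising P450 of the PXR programme, fell from 3706 ± 791 RPKM (SD, n = 5) to 282 ± 35.0 (n = 6), a log2 change of -3.69 ± 0.15 (adjusted p = 6.58e-14). Ces2a, a carboxylesterase, also fell (-2.51 ± 0.17, adjusted p = 1.01e-09). Cyp2b10, the classic CAR target, fell from 6.08 ± 3.21 to 0.533 ± 0.504 RPKM (adjusted p = 0.00169). The 1 that rose was Cyp2b9, named here after its values were seen, which went from 0.152 ± 0.161 to 85.5 ± 38.3 RPKM (adjusted p = 6.77e-07). Cyp2b, Cyp2c, Cyp3a and Cyp4a genes have near-identical copies between which reads can be split, so single values in those families are uncertain.

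GCGR antibody on HFD raised 6 of the 22 and lowered 0, against 5.33% and 2.12% of all genes. The list median was 0.39 against 0.05 over all genes. Cyp3a11 was 231 to 333 RPKM (median 288) in the HFD control libraries and 694 to 1247 (median 883) with GCGR antibody, with no overlap. Its rise was 1.66 ± 0.14 (3.15-fold, adjusted p = 7.86e-08), and its level stayed below the chow libraries, the lowest of which was at 2957 RPKM. Aldh1a1, a retinaldehyde dehydrogenase, rose by 0.59 ± 0.08 (adjusted p = 6.51e-05) and Ugt1a1, the bilirubin-conjugating enzyme, by 0.56 ± 0.09 (adjusted p = 2.29e-04). Cyp2b10 differed by 0.83 ± 0.44 (adjusted p = 0.259), with library 20 at 14.6 RPKM and the other 5 libraries at 0.115 to 2.05. On chow 0 of the 22 rose and 1 fell, the transporter gene Slco1a4 (-1.44 ± 0.31, adjusted p = 0.0215). For Cyp3a11 the antibody effects on the 2 diets differed (1.73 ± 0.20, adjusted p = 2.10e-04). Without libraries 19 and 20, 6 of the 22 were higher and 3 lower with GCGR antibody on HFD, against 7.03% and 3.95% of all genes. Diet under GCGR antibody lowered 10 and raised 6 of the 22, against 16.6% and 13.2% of all genes. The list median there was -0.14 against -0.02 over all genes.

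Glul and Cyp2e1, markers of the pericentral hepatocytes in which many of these enzymes are made, moved in the same comparison. On HFD with GCGR antibody they were higher by 0.48 ± 0.09 (adjusted p = 0.00275) and 0.56 ± 0.11 (adjusted p = 0.00298), 2 of the 8 pericentral markers called higher and 0 lower. The median log2 change of the 8 was 0.08, against 0.05 over all genes. Their summed level was 3564 to 5207 RPKM in the HFD control libraries and 4966 to 7260 with GCGR antibody. Most of that sum was Cyp2e1, with means of 3744 and 5516 RPKM. Of the 7 periportal markers 1 was higher, Cyp2f2 (0.47 ± 0.11, adjusted p = 0.0114), and 3 were lower, against 5.33% and 2.12% of all genes. Their sums were 2425 to 3723 and 1601 to 2467 RPKM, and no marker of either list was at 0. On chow the antibody called 0 of the 8 pericentral markers and lowered 2 of the 7 periportal ones, Gls2 and Ass1. The part of both marker lists in the Nr1i3 and Cyp3a11 results was not tested.

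PPARA, the fatty acid sensor, showed the largest diet effect of the 9 under each antibody. Ppara (chromosome 15, 85734910 to 85806851) was at 43.4, 30.1, 41.6, 38.5 and 37.3 RPKM in libraries 1 to 5, and HFD control libraries were at 51.0, 66.6 and 73.6 (lowest, median, highest). With GCGR antibody it was at 26.8, 40.6 and 54.9 RPKM on chow and at 62.3, 66.6 and 79.2 on HFD. Under each antibody every HFD library exceeded every chow library, and the highest chow value was in library 11. HFD raised Ppara by 0.72 ± 0.13 under control antibody (1.65-fold, adjusted p = 5.18e-04) and by 0.77 ± 0.13 under GCGR antibody (1.71-fold, adjusted p = 1.25e-04). Both calls held in all 17 and all 19 alternatives. The antibody effect was 0.07 ± 0.13 on chow and 0.12 ± 0.13 on HFD, with intervals of -0.21 to 0.34 and -0.15 to 0.38.

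Targets listed for PPARA, not all of them genes of fatty acid oxidation, were mostly higher on HFD under control antibody. Of 27 listed targets HFD under control antibody raised 22 and lowered 0, against 11.6% and 18.3% of all genes. The list median was 0.53 against -0.03 over all genes. Vnn1, a pantetheinase, rose from 14.7 ± 4.27 RPKM (SD, n = 5) to 50.5 ± 13.6 (n = 6), a log2 change of 1.71 ± 0.22 (adjusted p = 1.14e-05). The mitochondrial dehydrogenase gene Acadl rose by 0.50 ± 0.08 (adjusted p = 7.26e-05) and the fatty acid hydroxylase gene Cyp4a14 by 2.53 ± 0.61 (adjusted p = 0.00374). Under GCGR antibody the diet raised 14 of the 27 and lowered 0, against 13.2% and 16.6% of all genes. Among the raised was Cpt1a, the gate of mitochondrial fatty acid import (0.67 ± 0.11, adjusted p = 1.73e-04). Without libraries 19 and 20 those counts were 11 and 1, against 10.6% and 15.5% of all genes.

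With antibody on HFD few of these targets passed the test. GCGR antibody on HFD lowered 2 of the 27 and raised 0, with a median of -0.21 against 0.05 over all genes, and 13 of the 27 had an unadjusted p under 0.05, as did 24.0% of all genes (2869) in either direction. Plin2, the lipid droplet coat protein gene, fell from 348 ± 57.6 to 209 ± 54.0 RPKM (SD, n = 6 each) (-0.75 ± 0.16, adjusted p = 0.00547). Cpt2, the inner-membrane carnitine transferase, fell by 0.21 (-0.21 ± 0.05, adjusted p = 0.0194), a call that was lost with only the compared groups fitted (adjusted p = 0.0759). Without libraries 19 and 20, 8 of the 27 were lower, where the share of all genes called lower was 3.95%. On chow the antibody called 0 of the 27, at a median of 0.02, and the difference between the antibody effects was called for 0.

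Pparg was the most variable of the 9 genes and the one nearest the threshold. It was at 5.85, 8.64, 4.68, 6.63 and 3.48 RPKM in libraries 1 to 5, and at 4.60 to 15.2 (median 6.95) on chow with GCGR antibody. On HFD it was at 6.22 to 11.9 (median 9.50) with control antibody and 5.45 to 12.4 (median 7.23) with GCGR antibody. The groups overlapped, and the coefficient of variation within a group was 20.7% to 49.6%, against 3.92% to 15.2% for Hnf4a. The diet effect under control antibody was 0.60 ± 0.24 (95% interval 0.11 to 1.09, adjusted p = 0.0571), which passed without library 2 (0.74, adjusted p = 0.0270), without library 13 (0.70, adjusted p = 0.0302), with only the compared groups fitted, with array quality weights and under median-ratio scaling. Under GCGR antibody it was 0.10 ± 0.23 (adjusted p = 0.772). Library 9 on chow with GCGR antibody, at 15.2 RPKM, was above every HFD library.

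The PPARG targets known from fatty liver were mostly higher on HFD under control antibody. HFD under control antibody raised 7 of 9 and lowered 1, against 11.6% and 18.3% of all genes. The list median was 1.56 against -0.03 over all genes. The fatty acid translocase gene Cd36 rose from 16.6 ± 2.31 to 65.8 ± 18.9 RPKM (1.89 ± 0.29, adjusted p = 6.54e-05), Mogat1, a monoacylglycerol acyltransferase gene, by 1.65 ± 0.31 (adjusted p = 6.16e-04), Fabp4, a fatty acid binding protein gene, by 1.47 ± 0.29 (adjusted p = 9.58e-04) and Cidec, which enlarges lipid droplets, by 2.29 ± 0.70 (adjusted p = 0.0173). Lpl, lipoprotein lipase, was the 1 that fell (-0.92 ± 0.21, adjusted p = 0.00212). Diet under GCGR antibody raised 3 and lowered 1, and without libraries 19 and 20 it raised 1 and lowered 1, against 10.6% and 15.5% of all genes. GCGR antibody on HFD called 0 of the 9, at a median of -0.42, and 2 had an unadjusted p under 0.05, a share near the 24.0% of all genes. Without libraries 19 and 20, 2 of the 9 were called lower, against 3.95% of all genes.

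Adipocytes and macrophages also express Pparg and several of those targets. Of 6 adipocyte markers 4 were too low to be tested, and Cfd was higher (3.31 ± 0.57, adjusted p = 2.36e-04) and Adrb3 lower (-0.37 ± 0.13, adjusted p = 0.0322) on HFD under control antibody. The 6 summed to 4.38 to 6.56 RPKM in chow control libraries and 8.81 to 77.3 in HFD control libraries, and none was at 0 in all libraries. Most of the HFD control sum was Cfd, with means of 1.43 RPKM in chow control and 32.9 ± 28.1 in HFD control libraries (SD). Adrb3 averaged 3.63 and 2.67 RPKM in the same order. Of 12 macrophage markers 0 were called in that comparison, with sums of 96.8 to 178 and 105.0 to 197 RPKM. Under GCGR antibody the diet lowered 4 of the 12 macrophage markers and raised 5 of 9 stellate cell markers, against 16.6% and 13.2% of all genes. Their part in the Pparg and target results was not tested.

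LXRA, the oxysterol sensor, gave a small diet effect with little spread. Nr1h3 (chromosome 2, 91184061 to 91202829) was at 38.8, 41.7, 37.5, 39.3 and 40.8 RPKM in libraries 1 to 5, and HFD control libraries were at 44.2, 45.6 and 52.5 (lowest, median, highest). With GCGR antibody it was at 36.9, 39.1 and 43.1 RPKM on chow and at 43.5, 47.7 and 49.5 on HFD. No HFD library overlapped the chow libraries of the same antibody, though under GCGR antibody the nearest were 43.1 and 43.5 RPKM. HFD raised Nr1h3 by 0.24 ± 0.05 under control antibody (95% interval 0.13 to 0.36, 18.4%, adjusted p = 0.00222) and by 0.25 ± 0.05 under GCGR antibody (95% interval 0.14 to 0.36, 18.9%, adjusted p = 0.00111), in all alternatives. With antibody the intervals were -0.12 to 0.10 on chow and -0.11 to 0.10 on HFD, the narrowest of the 9 genes. The ends of Nr1h3 and of the lysosomal phosphatase gene Acp2 (10.6 to 14.2 RPKM) overlap.

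Of 12 listed LXR targets HFD under control antibody raised 2, Srebf1 and Fasn, and lowered 1, Abca1. Of all genes 11.6% were called higher and 18.3% lower. The list median was 0.02 against -0.03 over all genes, so the list as a whole was not shown to move. Srebf1, the master gene of lipid synthesis, went from 45.9 ± 9.16 RPKM (SD, n = 5) to 79.5 ± 10.1 (n = 6), a change of 0.79 ± 0.14 (adjusted p = 3.31e-04). Fasn, fatty acid synthase, rose by 0.60 ± 0.19 (adjusted p = 0.0205), and the cholesterol exporter gene Abca1 fell by 0.35 (-0.35 ± 0.11, adjusted p = 0.0218). Under GCGR antibody the diet raised 3, Srebf1 (1.02 ± 0.13, adjusted p = 9.36e-06), Abcg5 and Fasn, against 13.2% of all genes called higher. The list median there was 0.14 against -0.02 over all genes. GCGR antibody on HFD raised Abcg5 and lowered Scd1, the stearoyl-CoA desaturase gene (-1.13 ± 0.28, adjusted p = 0.0137), while Srebf1 differed by 0.00 ± 0.13 (adjusted p = 0.991). In that comparison 5.33% of all genes were called higher and 2.12% lower, and the list median was 0.15 against 0.05. The call for Scd1 was lost with only the compared groups fitted (adjusted p = 0.0548).

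Rora, a constitutive activator that competes with the REV-ERB repressors of the clock, was called in no comparison. Its RPKM were 9.25, 7.62, 9.01, 7.13 and 8.23 in libraries 1 to 5 and 7.65 to 9.49 (median 8.20) on chow with GCGR antibody. On HFD they were 6.23 to 9.70 (median 7.54) with control antibody and 6.06 to 8.44 (median 7.39) with GCGR antibody. All groups overlapped. The diet effect under GCGR antibody was -0.19 ± 0.09 (95% interval -0.37 to -0.01, adjusted p = 0.0987), and it was called without library 20 (-0.23, adjusted p = 0.0499) and with array quality weights (-0.23, adjusted p = 0.0347).

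Genes of the circadian clock differed with diet, and the labels give no time of sampling. Of 18 listed clock genes HFD raised 6 and lowered 3 under control antibody, against 11.6% of all genes called higher and 18.3% lower. Under GCGR antibody it raised 9 and lowered 4, against 13.2% and 16.6%. The shares lowered were thus near those of all genes. List medians were 0.22 against -0.03 over all genes and 0.39 against -0.02, in the same order. Per2, a repressor of the clock, rose by 1.07 ± 0.24 (adjusted p = 0.00239) and 1.53 ± 0.23 (adjusted p = 4.34e-05), and Clock fell by 0.69 and 0.88 (-0.69 ± 0.13 and -0.88 ± 0.12, adjusted p = 4.42e-04 and 1.56e-05). Ciart, a clock repressor gene with a strong daily rhythm, was at 4.82 RPKM in library 11 and at 0.0473 to 0.476 in the other 5 chow libraries with GCGR antibody. Library 11 also held the highest Nr1i3, Hnf4a, Ppara and Nr5a2 values of that group and the lowest Nr1i2 value, 21.8 RPKM. Its Rora value, 8.15 RPKM, lay within the range of the group. Among the chow control libraries, library 5 held the highest Ciart value, 2.33 RPKM. That library held the lowest Nr1i3 (72.0 RPKM), Pparg (3.48) and Nr1i2 (22.4) values of its group, and its other receptor values lay within the range. The part of the sampling time in the diet effects on the receptors was not tested.

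**Figure D3:**
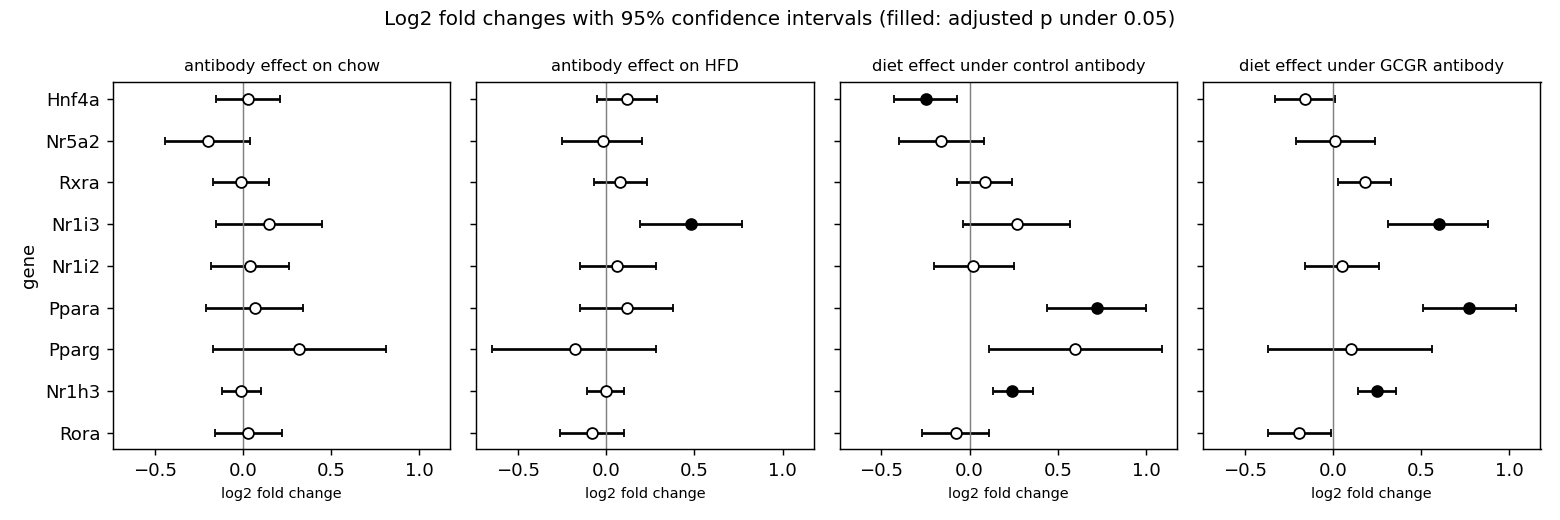
Log2 fold changes of the 9 receptor genes with 95% confidence intervals in the 2 antibody comparisons (left) and the 2 diet comparisons (right), filled where the adjusted p was under 0.05. In the antibody panels 1 point is filled, Nr1i3 on HFD at 0.48, while Ppara (0.72 and 0.77) and Nr1h3 (0.24 and 0.25) are filled in both diet panels.

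Among all nuclear receptor genes the 9 were mostly abundant. Of 49 receptor symbols, all in the table, 36 passed the filter, and the 13 others reached at most 0.367 RPKM in any library. By mean over 23 libraries Hnf4a ranked first of the 36, at 132 RPKM, followed by Nr1i3 at 107 and Rxra at 93.0. Ppara was 5th at 53.5, Nr1h3 6th at 43.4, Nr1i2 10th at 26.0, Nr5a2 15th at 11.3, Rora 18th at 7.92 and Pparg 19th at 7.85. The 9 genes carried 56.3% to 68.8% of the summed nuclear receptor RPKM of a library. In the order of the 9 within a group, Hnf4a stood above Rxra in every library, and in all 4 groups Nr1i3 overlapped Rxra and Rora overlapped Pparg. On chow Nr1h3 and Ppara overlapped (39.6 ± 1.67 and 38.2 ± 5.15 RPKM with control antibody), and on HFD with GCGR antibody every Ppara value lay above every Nr1h3 value (68.8 ± 6.61 and 47.0 ± 2.26).

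**Figure D4:**
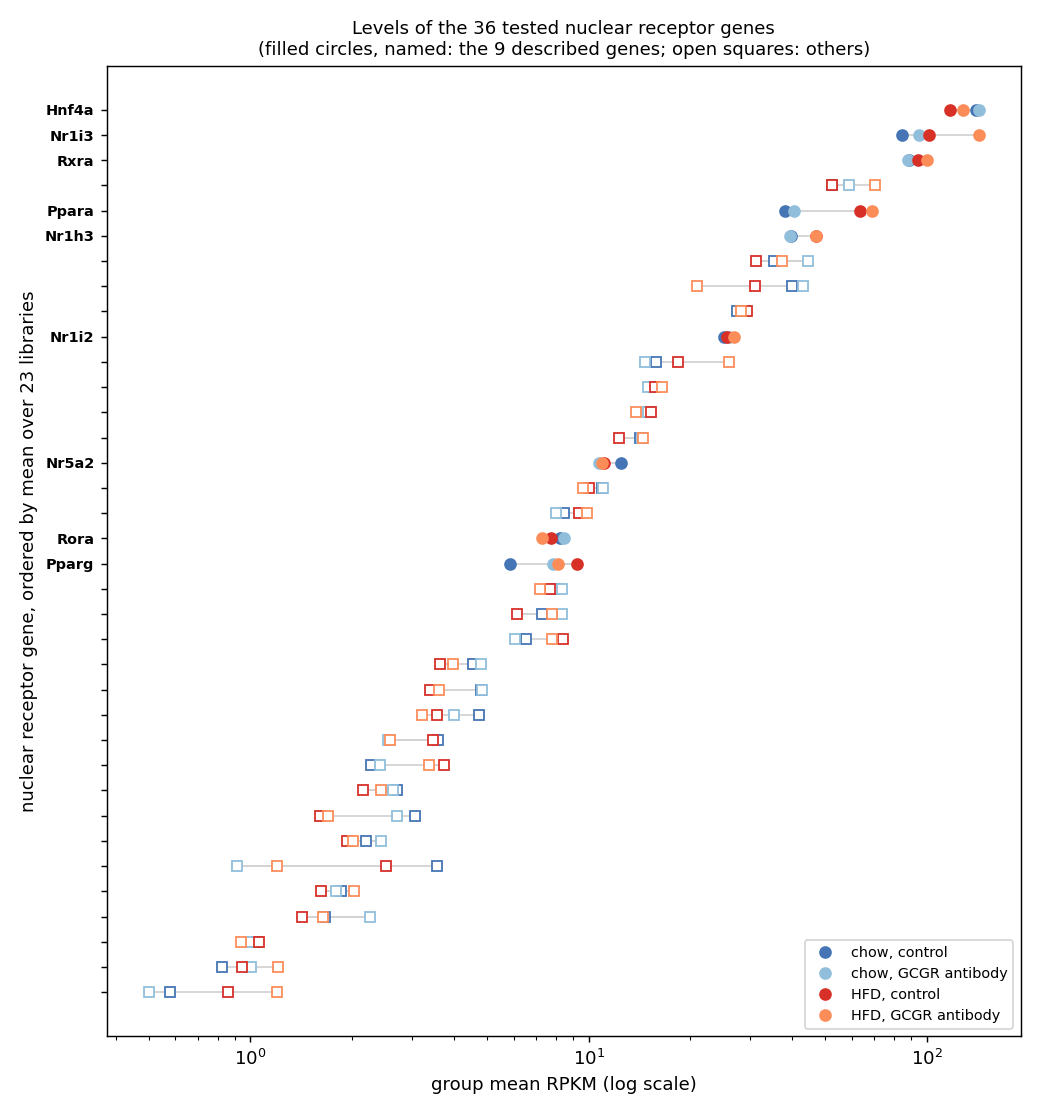
Group mean RPKM (log axis) of the 36 tested nuclear receptor genes, ordered by mean over 23 libraries, with filled, named circles for the 9 described genes and open, unnamed squares for the others, coloured by group. Hnf4a, Nr1i3 and Rxra lie at the top at 93.0 to 132 RPKM on average, and the horizontal spread of the circles is widest for Ppara and Nr1i3.

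Of the 27 other receptor genes tested, GCGR antibody on HFD raised 2 and lowered 1, near the 5.33% and 2.12% of all genes called higher and lower. On chow it called 0, against 0.946% of all genes. Nr1h4, which encodes the bile acid receptor FXR, rose from 52.6 ± 4.08 to 70.2 ± 4.12 RPKM (SD, n = 6 each) with no overlap, a change of 0.41 ± 0.08 (adjusted p = 0.00195). Nr1d1, the clock repressor REV-ERBα, fell by 0.60 (-0.60 ± 0.19, adjusted p = 0.0493), a call that was lost in 14 of 19 alternatives. Diet under control antibody raised 2 and lowered 4 of the 27, against 11.6% of all genes called higher and 18.3% lower. Among the lowered were Nr6a1 (-0.64 ± 0.09, adjusted p = 2.36e-05), the germ cell nuclear factor gene, and the testicular receptor genes Nr2c2 (-0.41 ± 0.08) and Nr2c1 (-0.33 ± 0.07). Diet under GCGR antibody raised 6 and lowered 7, against 13.2% and 16.6% of all genes. Nr0b2, the FXR-induced repressor SHP, differed by 0.25 ± 0.31 with antibody on HFD (adjusted p = 0.648), and Ppard by 0.03 ± 0.08 (adjusted p = 0.858).

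Receptors act through coregulators, and 20 of these were listed. HFD under control antibody lowered 12 and raised 1, with a median of -0.29 against -0.03 over all genes. The coactivator genes Ncoa3, Crebbp and Ncoa2 fell by 0.41, 0.36 and 0.42 (-0.41 ± 0.07, -0.36 ± 0.07 and -0.42 ± 0.09), with adjusted p of 2.57e-04, 4.77e-04 and 0.00117. GCGR antibody on HFD raised 2, the corepressor gene Ncor1, from 12.2 ± 0.720 to 15.5 ± 0.818 RPKM (0.32 ± 0.05, adjusted p = 4.44e-04), and Ncoa3 (0.26 ± 0.07, adjusted p = 0.0197). Of all genes 5.33% were called higher in that comparison. The call for Ncoa3 was lost with only the compared groups fitted and under median-ratio scaling. Without libraries 19 and 20, 4 of the 20 were higher, against 7.03% of all genes. Ppargc1a, the coactivator that works with PPARA and HNF4A, differed by -0.02 ± 0.10 there (adjusted p = 0.909) and was raised by diet under GCGR antibody (0.39 ± 0.10, adjusted p = 0.00522). Of 12 other liver-enriched factors, 0 were called with antibody on either diet, and 1 rose and 1 fell with diet under each antibody. Of all genes, diet raised 11.6% and lowered 18.3% under control antibody, and raised 13.2% and lowered 16.6% under GCGR antibody.

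**Figure D5:**
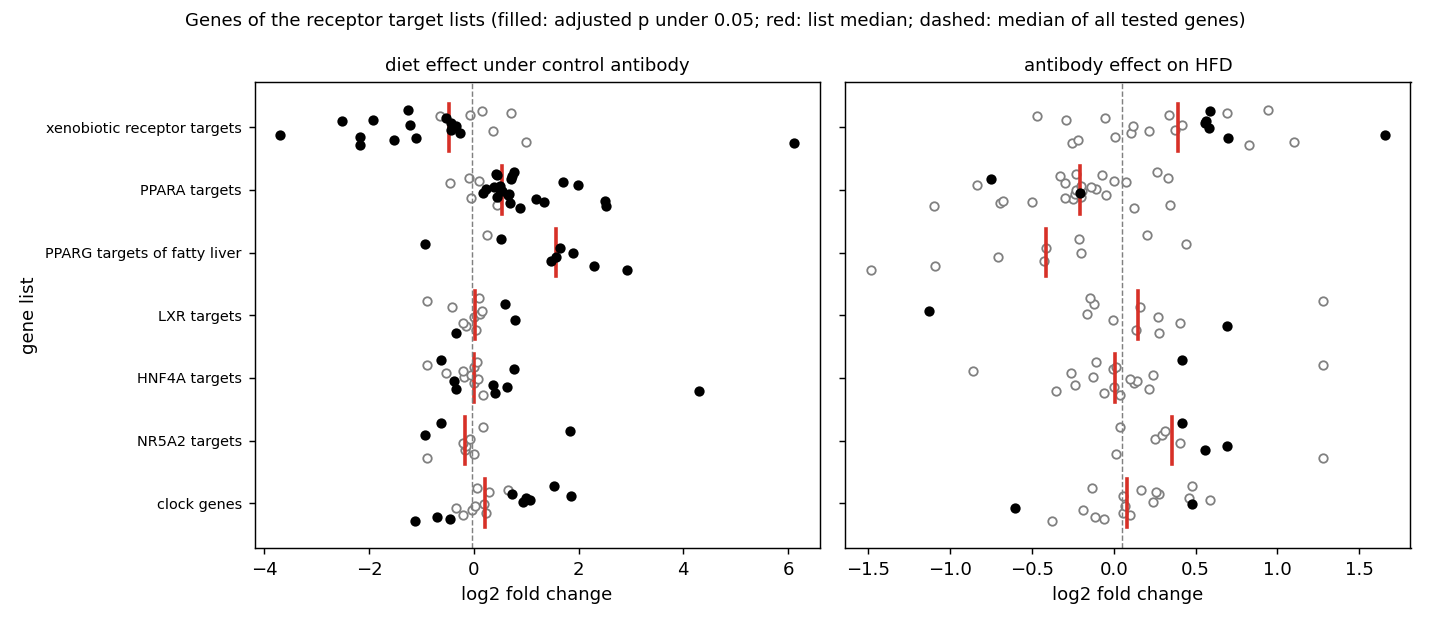
Log2 fold changes of the genes in the receptor target lists and the clock list (each point 1 gene, filled where the adjusted p was under 0.05), for diet under control antibody (left) and GCGR antibody on HFD (right), with the list median in red and the median of all genes dashed. Points of the PPARA list lie mostly right of 0 on the left (median 0.53) and mostly left of it on the right (median -0.21), and those of the xenobiotic list the other way (medians -0.48 and 0.39). The 2 panels share the HFD control libraries, so opposite positions are not independent.

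The genes whose variation within groups was most like that of a receptor were sought over the 23 libraries, as the highest Pearson correlation of deviations from group means. These are descriptions over libraries that share depth and composition. For Nr1i3 they were Cdk8 (r = 0.88) and Vps13a (0.83), for Hnf4a Pfkfb2 (0.88) and St13 (0.85), and for Ppara Klhl21 (0.86) and Pik3cb (0.84). Nr5a2 was most like Sesn3 and Map3k2 (0.86 each), Rxra like Fam120c (0.82) and Polr1a (0.78), and Nr1h3 like Pdf (0.80) and Mrps7 (0.79). For Pparg the 2 were Rfc3 (0.78) and Ttc8 (0.75), for Rora Stard13 (0.77) and Jmjd1c (0.75), and for Nr1i2 the second was Il2rg (0.74).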

How the data were processed

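Liver RNA of 23 mouse samples was measured by RNA-seq, and groups were read from the sample titles. Per the labels' protocols, strand-specific mRNA libraries were amplified in 12 PCR cycles and sequenced as single reads of 33 cycles. FastQC, bcl2fastq 2.17 and build GRCm38 are named per the submitters' processing notes. Not given in the sources used here: aligner, counter, annotation and strand setting. RPKM values for 24475 genes were deposited by the authors and were not treated as counts. Relative depths (0.865 to 1.15) came from steps of 1627 low genes, where 76.9% of values were whole multiples to within 0.05, while absolute depth is unknown.

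Values were tested with limma 3.58.1 in R 4.3.3 on log2(RPKM + 1), with 4 group means, all 23 libraries and a mean-variance trend. The filter kept a gene if 5 or more libraries had an RPKM of 0.5 or more. The fitting code was run on simulated data, with genes drawn independently and known changes put into the HFD group given GCGR antibody. Recovery and false calls were checked for the antibody effect on HFD, and false calls for the antibody effect on chow. The diet comparisons, the difference between the antibody effects and the list counts were not checked in this way. Alternatives were a pseudocount of 0.1, no filter, a stricter filter (RPKM of 1 or more in 11 or more libraries), median-ratio scaling, only the compared groups, array quality weights, each library left out, and libraries 19 and 20 left out. The list counts under these alternatives were added after the data were seen.

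The 9 members and all gene lists were chosen with earlier results of these data known. The lists held 40 other nuclear receptors, 20 coregulators, 12 other liver factors, 6 target or clock groups beside the xenobiotic one, and markers of liver cell types. Named genes are the members, the 2 genes most like each, 14 genes fixed by name, and per list and comparison at most the 3 called genes with the smallest adjusted p. Positions and promoters are from RefSeq tables of GRCm38.p6. Protein sequences were not used here. A few genes that the naming rule picks are not reported here.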

Additional observations from a re-analysis of the deposited data

Results flagged for a closer look

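Within groups of 5 or 6 libraries, a library was singled out when its distance to the nearest other library was large against the group's range (Dixon's test, which chance alone meets in about 1 in 20 groups). Over 208 combinations of gene and group, 18 such libraries were found, and over the 36 combinations of the 9 receptors 1. That 1 was Pparg in library 9 of chow with GCGR antibody, at 15.2 RPKM against 4.60 to 8.38 in the others.

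Library 19, of GCGR antibody on HFD, stood apart for Cpt2 at 47.1 RPKM, Srebf1 at 56.8, Cyp7a1 at 26.6 (all lowest of the group) and Apoc3 at 3965 (highest). Library 20 of the same group was highest for Cyp2b10 at 14.6, Ppard at 2.68 and Ciart at 10.3 RPKM. Library 11, of GCGR antibody on chow, was highest for Fabp4 at 15.9, Per2 at 4.46 and Ciart at 4.82 RPKM. In that group library 6 was lowest for Esrrg at 0.137 and Cd36 at 8.50, and library 10 was highest for Scd1 at 1346 RPKM. Among chow control libraries, library 1 was highest for Gcgr at 117 and Ppard at 2.99 RPKM, and library 5 for Ciart at 2.33. Library 13, of control antibody on HFD, was highest for Ncoa3 at 3.86 RPKM.

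The antibody effects on the 2 diets differed for Cyp3a11, by 1.73 ± 0.20 on the log2 scale (adjusted p = 2.10e-04), and for Aldh1a1, by 0.56 ± 0.12 (adjusted p = 0.0439). The call for Aldh1a1 was lost in 20 of 29 alternatives.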

How the results depend on the processing

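No paired analysis was possible because the sample numbers run from 1 to 23 and no number is shared between groups. The count of receptors called with GCGR antibody on HFD, 1 in the analysis as reported, was 0 without the filter and 0 under median-ratio scaling, and 0 to 1 when single libraries were left out. With diet under GCGR antibody it was 3 as reported, 5 with array quality weights (Rxra and Rora added) and 3 to 5 when single libraries were left out, the 5 without library 20 (Hnf4a and Rora added). The counts on chow and for the difference between the antibody effects stayed at 0 in all 17 and all 29 alternatives, and with diet under control antibody the count ran from 2 to 4 over 17. No receptor that was called changed direction. Over all genes, the antibody effect on HFD called 889 genes, 423 with only the compared groups, 2033 with array quality weights, 544 without library 12 and 1604 without library 19. The antibody effect on chow called 113, 228 with array quality weights and as few as 57 with a library left out. The difference between the antibody effects called 24, 8 without the filter, 190 with array quality weights, 132 without libraries 19 and 20, and 5 to 65 when single libraries were left out. The cause was not tested. Absolute depth is unknown, so no counting interval stands beside low genes such as Cyp2b10 or Ciart.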
